A study of Homo sapiens with 8 samples.

Results

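The keratins are the intermediate filament proteins of epithelial cells, and their transcripts were followed in 4 human pancreatic ductal adenocarcinoma (PDA) cell lines with and without a small interfering RNA (siRNA) against PDX1. Members were all rows whose gene symbol was KRT followed by a number and at most a letter from A to C. Keratin-associated proteins, pseudogenes, antisense genes and rows that held several symbols were not members. The rule found 65 of the 28520 rows. These rows held 55 symbols, 29 of type I and 26 of type II. Of the 65 rows, 17 reached 1 FPKM (fragment counts divided by transcript length and by the size of the library) in at least 1 library and are described gene by gene. Of the other 48 rows, 27 were listed at 0 in all 8 libraries and 21 lay between 0 and 1 FPKM.

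The libraries were RNA-seq of total RNA, 1 from cells given PDX1 siRNA and 1 from cells given a control siRNA in each of Panc.8, HPAF-II, Panc.05.04 and Panc.10.05. All cells were collected 3 days after transfection. Each line is an established culture grown from the cancer of a single patient, without stroma or immune cells, so the 4 lines served as the replicates, with a single library per siRNA in each. PDX1 is a homeobox protein that the embryonic pancreas and adult beta cells require, and the study asked which transcripts differ when its siRNA is given.

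Keratin filaments are built from obligate pairs, each made of a type I protein (smaller, acidic) and a type II protein (larger, neutral to basic). Type I genes lie in a cluster on chromosome 17 and type II genes in a cluster on chromosome 12, where the type I gene KRT18 also sits beside its partner KRT8. Simple epithelia such as the pancreatic duct carry KRT8 with KRT18, joined by KRT7 and KRT19, whereas stratified epithelia carry KRT5 with KRT14 in the basal layer and other pairs above it. Pathologists read KRT7, KRT19, KRT5, KRT17 and KRT20 in tumour sections to describe where a carcinoma came from and how it has differentiated.

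PDX1 itself was at 0.372 (Panc.8), 5.37 (HPAF-II), 0.416 (Panc.05.04) and 0.0998 FPKM (Panc.10.05) with PDX1 siRNA, against 0.914 (Panc.8), 9.61 (HPAF-II), 1.41 (Panc.05.04) and 0.188 FPKM (Panc.10.05) with control siRNA. PDX1 was thus lower with its siRNA in 4 of 4 lines, with a mean log2 ratio of FPKM + 1 of -0.52 ± 0.30 (SD, n = 4 lines). In a two-sided exact permutation of the signs of the 4 ratios, 2 of 16 patterns were as extreme, the fewest that 4 pairs allow. FPKM sums ran between 371329 and 428778 over the 8 libraries. The depth is unknown, as the sources used here give no read numbers, and no counting interval is given. The lowest values were spaced so that the PDX1 siRNA library had an estimated depth between 0.629 of its control in Panc.8 and 1.39 of its control in HPAF-II. Each line had its own table, and the tables may have been scaled separately, so levels set across lines are descriptions without a test. P-values measure the spread between the 4 lines.

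The label of carcinoma cells was checked on marker lists. Of 8 carcinoma epithelial genes, 8 reached 1 FPKM in every library of Panc.8, HPAF-II and Panc.10.05, against 5 with PDX1 siRNA and 6 with control siRNA in Panc.05.04. EPCAM, the highest of them, lay between 32.0 FPKM in the Panc.05.04 control and 990.1 FPKM in the HPAF-II control. SOX9 was the highest of the ductal genes, at 62.9 FPKM with PDX1 siRNA in HPAF-II. Markers of other cell types were mostly low. The 7 fibroblast genes summed to between 0.631 and 5.49 FPKM, with COL1A1 highest at 5.39 FPKM, and the endothelial genes to 0.832 FPKM or less, with PECAM1 highest. The acinar gene CEL was at 4.92 FPKM with PDX1 siRNA and 4.58 FPKM with control siRNA in Panc.8 and at 0.267 FPKM or less elsewhere, while CPA1, CELA3A, AMY2A and PNLIP, like the endocrine GCG and SST, were listed at 0. LYZ (lysozyme) was the highest of the leukocyte genes, at 1328 FPKM with PDX1 siRNA and 1591 FPKM with control siRNA in HPAF-II. CD68 lay between 8.16 and 75.7 FPKM over the 8 libraries and CD14 between 0.599 and 17.3 FPKM, whereas CD3E was at 0.842 FPKM or less. PRSS1, CHGA and PTPRC are not read as levels, since each also has a row on an alternate contig.

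Some members could not be read from these files. Of the 65 rows, 10 lay on alternate contigs of the genome build and held copies of 9 symbols, namely KRT12, KRT20, KRT23, KRT33A, KRT33B, KRT34, KRT37, KRT39 and KRT40. Among their 9 rows on the primary chromosomes, 8 were listed at 0 in all 8 libraries. Over the whole table, 806 of 1054 primary rows with such a copy were listed at 0 in all 8 libraries (76.5%), against 6157 of 24895 rows without one (24.7%). TAF15, AATF and PSMB3, genes that all cells use, were among those listed at 0. KRT20, the intestinal keratin that pathologists use beside KRT7, is therefore only listed at 0 here, with no level given for it.

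The simple epithelial keratins were the main keratins of HPAF-II, Panc.05.04 and Panc.10.05 and shared Panc.8 with stratified ones, and in Panc.05.04 nearly all keratin RNA was that of the pair KRT8 and KRT18. KRT8, the type II member found in all simple epithelia, was at 445 (Panc.8), 814 (HPAF-II), 394 (Panc.05.04) and 1258 FPKM (Panc.10.05) with PDX1 siRNA, against 437 (Panc.8), 964 (HPAF-II), 305 (Panc.05.04) and 1641 FPKM (Panc.10.05) with control siRNA. Its type I partner KRT18 was at 314 (Panc.8), 601 (HPAF-II), 494 (Panc.05.04) and 1124 FPKM (Panc.10.05) with PDX1 siRNA, against 331 (Panc.8), 674 (HPAF-II), 393 (Panc.05.04) and 1269 FPKM (Panc.10.05) with control siRNA. Both were highest in Panc.10.05, and both were higher with PDX1 siRNA in Panc.05.04 and lower with it in HPAF-II and Panc.10.05. The values of the PDX1 siRNA and control siRNA groups overlapped. The lines differed by more than the siRNA libraries of a line, so this overlap says little about the siRNA. The KRT8 and KRT18 rows share a single interval in the files, chr12:52897187-52952901 of hg38, where the genes lie on opposite strands and overlap. The sources used here do not say whether counting used the strand, so reads from the overlap cannot be told apart between these genes.

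The ratio of KRT8 to KRT18, both measured per length of transcript within a library, was 1.42 (Panc.8), 1.35 (HPAF-II), 0.798 (Panc.05.04) and 1.12 (Panc.10.05) with PDX1 siRNA, against 1.32 (Panc.8), 1.43 (HPAF-II), 0.775 (Panc.05.04) and 1.29 (Panc.10.05) with control siRNA. Panc.05.04 was thus the line in which KRT18 exceeded KRT8, with either siRNA.

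KRT7 and KRT19, the keratins that mark ductal epithelium, were among the most abundant members in 3 lines and low in Panc.05.04. KRT19, a type I keratin without the usual tail domain, was at 1521 (Panc.8), 1094 (HPAF-II), 0.921 (Panc.05.04) and 2107 FPKM (Panc.10.05) with PDX1 siRNA, against 1743 (Panc.8), 1207 (HPAF-II), 1.55 (Panc.05.04) and 1758 FPKM (Panc.10.05) with control siRNA. KRT7, a type II keratin of glandular ducts, was at 1039 (Panc.8), 572 (HPAF-II), 0.709 (Panc.05.04) and 736 FPKM (Panc.10.05) with PDX1 siRNA, against 949 (Panc.8), 540.2 (HPAF-II), 0.868 (Panc.05.04) and 890.2 FPKM (Panc.10.05) with control siRNA. Both genes were at or above 540.2 FPKM in the libraries of 3 lines and at or below 1.55 FPKM in those of Panc.05.04, and within lines the siRNA groups differed by at most 0.41 on the log2(FPKM + 1) scale for KRT19 and 0.27 for KRT7. Among all 28520 rows, KRT19 ranked 8 with PDX1 siRNA and 7 with control siRNA in Panc.8, and 7 with PDX1 siRNA and 6 with control siRNA in Panc.10.05. Its level relative to KRT18 was 4.85 with PDX1 siRNA and 5.27 with control siRNA in Panc.8, but 0.00187 with PDX1 siRNA and 0.00394 with control siRNA in Panc.05.04.

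Other genes differed in Panc.05.04 beside these keratins. VIM (vimentin), the intermediate filament protein of mesenchymal cells, was at 767.5 FPKM with PDX1 siRNA and 1080.2 FPKM with control siRNA there, against 3.48 FPKM or less in the 6 libraries of the other lines. Of the 8 carcinoma epithelial genes, MUC1 was at 81.3 FPKM with PDX1 siRNA and 117 FPKM with control siRNA in Panc.05.04, within its range of 64.5 to 413 FPKM in the other lines. EPCAM was at 47.2 FPKM with PDX1 siRNA and 32.0 FPKM with control siRNA there, and at 98.0 FPKM or more elsewhere. The other 6 were at 2.44 FPKM or less in Panc.05.04 and at 10.2 FPKM or more elsewhere. The part of these genes in the keratin levels was not tested. In Panc.05.04 the VIM to KRT18 ratio was 1.55 with PDX1 siRNA and 2.75 with control siRNA, so vimentin exceeded the most abundant keratin per length of transcript in both libraries.

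**Figure D1:**
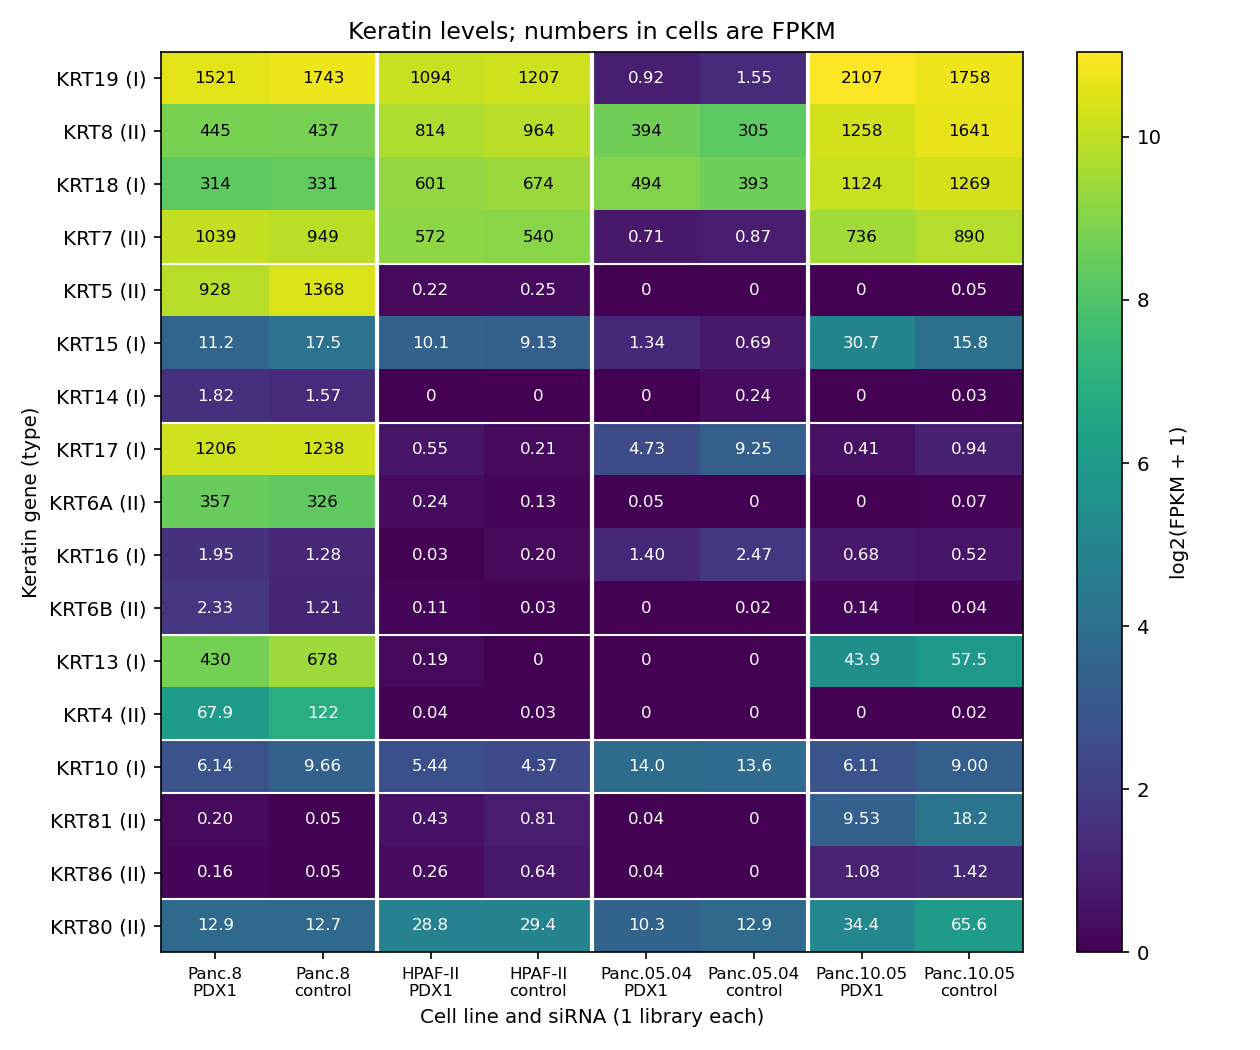
Levels of the 17 keratins that reached 1 FPKM, ordered by class (rows) and cell line (columns, PDX1 siRNA left of control siRNA, 1 library each). Colour gives log2(FPKM + 1) and the printed number gives FPKM, and KRT5, KRT17, KRT6A, KRT13 and KRT4 are bright in the Panc.8 columns while KRT7 and KRT19 are dark in the Panc.05.04 columns.

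Panc.8 was the line with keratins of stratified epithelium at high level. KRT5, the type II keratin of basal cells, was at 928 (Panc.8), 0.216 (HPAF-II), 0 (Panc.05.04) and 0 FPKM (Panc.10.05) with PDX1 siRNA, against 1368 (Panc.8), 0.249 (HPAF-II), 0 (Panc.05.04) and 0.0505 FPKM (Panc.10.05) with control siRNA. KRT14, its usual type I partner in basal cells, was only at 1.82 FPKM with PDX1 siRNA and 1.57 FPKM with control siRNA in Panc.8, and at 0.239 FPKM or less in the other libraries. KRT15, another basal type I keratin that also marks hair follicle stem cells, was at 11.2 (Panc.8), 10.1 (HPAF-II), 1.34 (Panc.05.04) and 30.7 FPKM (Panc.10.05) with PDX1 siRNA, against 17.5 (Panc.8), 9.13 (HPAF-II), 0.691 (Panc.05.04) and 15.8 FPKM (Panc.10.05) with control siRNA. KRT5 was thus high without a matching level of KRT14, and KRT15 was spread over the lines with its highest values in Panc.10.05.

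The wound and hyperproliferative keratins, which rise in injured and in rapidly renewing stratified epithelium, were also high in Panc.8. KRT17, a type I keratin of skin appendages and of wounds, was at 1206 (Panc.8), 0.549 (HPAF-II), 4.73 (Panc.05.04) and 0.407 FPKM (Panc.10.05) with PDX1 siRNA, against 1238 (Panc.8), 0.206 (HPAF-II), 9.25 (Panc.05.04) and 0.940 FPKM (Panc.10.05) with control siRNA. KRT6A, a type II partner of KRT16 and KRT17, was at 357 FPKM with PDX1 siRNA and 326 FPKM with control siRNA in Panc.8, and at 0.239 FPKM or less in the other libraries. The 2 libraries of Panc.8 stood far above all others for both genes, and Panc.05.04 came next for KRT17. KRT6B was at 2.33 FPKM with PDX1 siRNA and 1.21 FPKM with control siRNA in Panc.8 and at 0.139 FPKM or less elsewhere. KRT6C stayed at 0.230 FPKM or less in every library. KRT16, the usual type I partner of KRT6A, was at 1.95 (Panc.8), 0.0337 (HPAF-II), 1.40 (Panc.05.04) and 0.677 FPKM (Panc.10.05) with PDX1 siRNA, against 1.28 (Panc.8), 0.201 (HPAF-II), 2.47 (Panc.05.04) and 0.523 FPKM (Panc.10.05) with control siRNA. KRT16 was thus low everywhere, with its highest value in the Panc.05.04 control. KRT16P2, a pseudogene outside the rule, was at 1.91 FPKM with PDX1 siRNA and 2.10 FPKM with control siRNA in Panc.10.05.

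Several of these members are near-identical copies, shown here because reads from them may have been split between rows. The coding sequences of KRT6A and KRT6C were 97.9% identical (GENCODE v29), and 52.8% of the windows of 50 bases in KRT6A occurred unchanged in another keratin of either type. For KRT6B, 98.5% identical to KRT6C, that share was 62.6%. The following 60 coding bases begin at coding base 663 of each gene (GRCh38, minus strand, 5′ to 3′, at chr12:52491555-52491614 for KRT6A, chr12:52450439-52450498 for KRT6B and chr12:52472099-52472158 for KRT6C). This stretch was picked for the most differences among aligned stretches of that length, and the genes are more alike over the whole coding sequence. Capitals mark in KRT6A each base that differs in at least 1 of the other genes, and in KRT6B and KRT6C each base that differs from KRT6A.
KRT6A: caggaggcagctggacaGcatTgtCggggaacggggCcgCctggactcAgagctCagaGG
KRT6B: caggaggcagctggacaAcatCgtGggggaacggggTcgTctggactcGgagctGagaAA
KRT6C: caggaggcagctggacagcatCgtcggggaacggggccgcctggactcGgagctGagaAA
KRT6A, KRT6B and KRT6C values are therefore uncertain against each other, while their sum in Panc.8 rests on KRT6A as listed.

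The type I members KRT14, KRT16 and KRT17 are less alike. KRT14 and KRT16 were 85.2% identical in coding sequence, with 13.5% of the windows of KRT14 and 13.6% of those of KRT16 shared with another keratin. KRT17 was 78.2% identical to KRT14 and shared 2.09% of its windows. The following 60 coding bases show a stretch where these genes can be told apart (GRCh38, minus strand, 5′ to 3′, at chr17:41624085-41624144 for KRT17, chr17:41612165-41612224 for KRT16 and chr17:41586317-41586376 for KRT14). This stretch, too, was picked for the most differences. Capitals mark in KRT17 each base that differs in at least 1 of the other genes, and in KRT16 and KRT14 each base that differs from KRT17.
KRT17: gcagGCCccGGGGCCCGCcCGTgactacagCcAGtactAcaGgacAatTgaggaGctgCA
KRT16: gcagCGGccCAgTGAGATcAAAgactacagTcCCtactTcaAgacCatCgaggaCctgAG
KRT14: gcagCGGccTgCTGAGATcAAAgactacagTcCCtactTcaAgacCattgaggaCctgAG
Most of KRT17 was thus distinct from the coding sequences of the other members at the length of a window, and its level in Panc.8 stood beside low values of both relatives. Pseudogenes such as KRT17P5 and KRT16P2 were not among the sequences compared.

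The mucosal pair and a few single keratins completed the set. KRT13, the type I keratin of internal stratified linings such as the oesophagus, was at 430.3 (Panc.8), 0.187 (HPAF-II), 0 (Panc.05.04) and 43.9 FPKM (Panc.10.05) with PDX1 siRNA, against 678 (Panc.8), 0 (HPAF-II), 0 (Panc.05.04) and 57.5 FPKM (Panc.10.05) with control siRNA. KRT4, its type II partner in those linings, was at 67.9 FPKM with PDX1 siRNA and 122 FPKM with control siRNA in Panc.8, and at 0.0440 FPKM or less in all other libraries. KRT13 thus reached 1 FPKM in Panc.8 and Panc.10.05, and KRT4 in Panc.8 alone among these 4 lines. KRT10, the type I keratin of differentiating epidermis, was at 6.14 (Panc.8), 5.44 (HPAF-II), 14.0 (Panc.05.04) and 6.11 FPKM (Panc.10.05) with PDX1 siRNA, against 9.66 (Panc.8), 4.37 (HPAF-II), 13.6 (Panc.05.04) and 9.00 FPKM (Panc.10.05) with control siRNA. KRT80, a type II keratin found across many epithelia, was at 12.9 (Panc.8), 28.8 (HPAF-II), 10.3 (Panc.05.04) and 34.4 FPKM (Panc.10.05) with PDX1 siRNA, against 12.7 (Panc.8), 29.4 (HPAF-II), 12.9 (Panc.05.04) and 65.6 FPKM (Panc.10.05) with control siRNA. These 2 keratins, with KRT8 and KRT18, were the 4 members at 1 FPKM or more in all 8 libraries.

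The hair shaft keratins KRT81 and KRT86 reached 1 FPKM in Panc.10.05 alone. KRT81 was at 9.53 FPKM with PDX1 siRNA and 18.2 FPKM with control siRNA there, and at 0.805 FPKM or less in the other libraries. KRT86 was at 1.08 FPKM with PDX1 siRNA and 1.42 FPKM with control siRNA in Panc.10.05, and at 0.643 FPKM or less elsewhere. The 2 genes were 90.1% identical in coding sequence, and 54.0% of the windows of KRT81 occurred in another keratin, so their values are uncertain against each other. KRT86 was the described member with the lowest peak, at 1.42 FPKM, and KRT222 was the highest of those not described, at 0.765 FPKM with PDX1 siRNA in Panc.8.

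The window around the annotated start is printed for KRT5 and KRT4, which were high in Panc.8 and were lower there with PDX1 siRNA, and for KRT10, which was measured in all 8 libraries. Each runs 250 bases before to 50 bases after the start (RefSeq, GRCh38.p14, minus strand, 5′ to 3′), at chr12:52520345-52520644 for KRT5, chr12:52814067-52814366 for KRT4 and chr17:40822565-40822864 for KRT10. Capitals mark matches on either strand to the TATA box (TATAAA), the CCAAT box (CCAAT), the GC box (GGGCGG) and the CACCC box (CACCC), and no match overlaps another in these windows.
KRT5: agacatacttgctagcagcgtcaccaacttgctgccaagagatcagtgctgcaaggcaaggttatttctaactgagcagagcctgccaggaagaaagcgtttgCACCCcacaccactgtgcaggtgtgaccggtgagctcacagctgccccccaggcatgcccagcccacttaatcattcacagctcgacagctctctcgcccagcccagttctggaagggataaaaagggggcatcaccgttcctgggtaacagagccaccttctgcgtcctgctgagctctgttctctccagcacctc
KRT4: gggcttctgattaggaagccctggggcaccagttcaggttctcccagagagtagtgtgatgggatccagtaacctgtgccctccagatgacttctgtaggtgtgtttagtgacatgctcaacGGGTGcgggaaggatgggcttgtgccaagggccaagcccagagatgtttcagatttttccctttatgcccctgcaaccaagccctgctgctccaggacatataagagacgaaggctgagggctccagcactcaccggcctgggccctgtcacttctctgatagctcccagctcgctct
KRT10: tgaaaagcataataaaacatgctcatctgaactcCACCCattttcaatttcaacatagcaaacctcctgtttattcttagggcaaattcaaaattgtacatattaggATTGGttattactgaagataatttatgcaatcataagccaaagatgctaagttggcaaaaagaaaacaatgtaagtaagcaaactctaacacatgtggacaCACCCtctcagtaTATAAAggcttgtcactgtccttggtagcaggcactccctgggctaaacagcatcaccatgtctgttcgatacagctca
The KRT10 window held TATAAA at -29 from the start, CCAAT on the opposite strand at -143, and CACCC at -216 and -42. A CACCC match was found at -147 in KRT5 and on the opposite strand at -128 in KRT4.

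Promoters in the RefSeq table were found for 34 of the 55 keratin symbols, 38 promoters in all. TATAAA was in 21 of these 38 (55.3%), against 11.5% of all 35116 promoters of the same length. CCAAT was in 18 (47.4%, against 34.6%) and CACCC in 29 (76.3%, against 59.9%), whereas GGGCGG was in 6 (15.8%, against 45.0%). These are matches of letters in a window and describe no bound factor.

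As shares of the summed keratin FPKM of a library, the classes set Panc.8 apart from the other lines. The sum was 6346 (Panc.8), 3127 (HPAF-II), 922 (Panc.05.04) and 5353 FPKM (Panc.10.05) with PDX1 siRNA, against 7237 (Panc.8), 3431 (HPAF-II), 739.8 (Panc.05.04) and 5727 FPKM (Panc.10.05) with control siRNA. That was between 0.195% and 1.74% of all FPKM of a library. The simple epithelial class made up 52.3% (Panc.8), 98.5% (HPAF-II), 96.5% (Panc.05.04) and 97.6% (Panc.10.05) with PDX1 siRNA, against 47.8% (Panc.8), 98.7% (HPAF-II), 94.6% (Panc.05.04) and 97.0% (Panc.10.05) with control siRNA. In Panc.8 the wound and hyperproliferative class held 24.7% with PDX1 siRNA and 21.7% with control siRNA, the basal class 14.8% with PDX1 siRNA and 19.2% with control siRNA, and the mucosal class 7.85% with PDX1 siRNA and 11.0% with control siRNA. It took 7 keratins to reach 90% of the sum in Panc.8, 4 in HPAF-II and in Panc.10.05, and 2 in Panc.05.04.

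**Figure D2:**
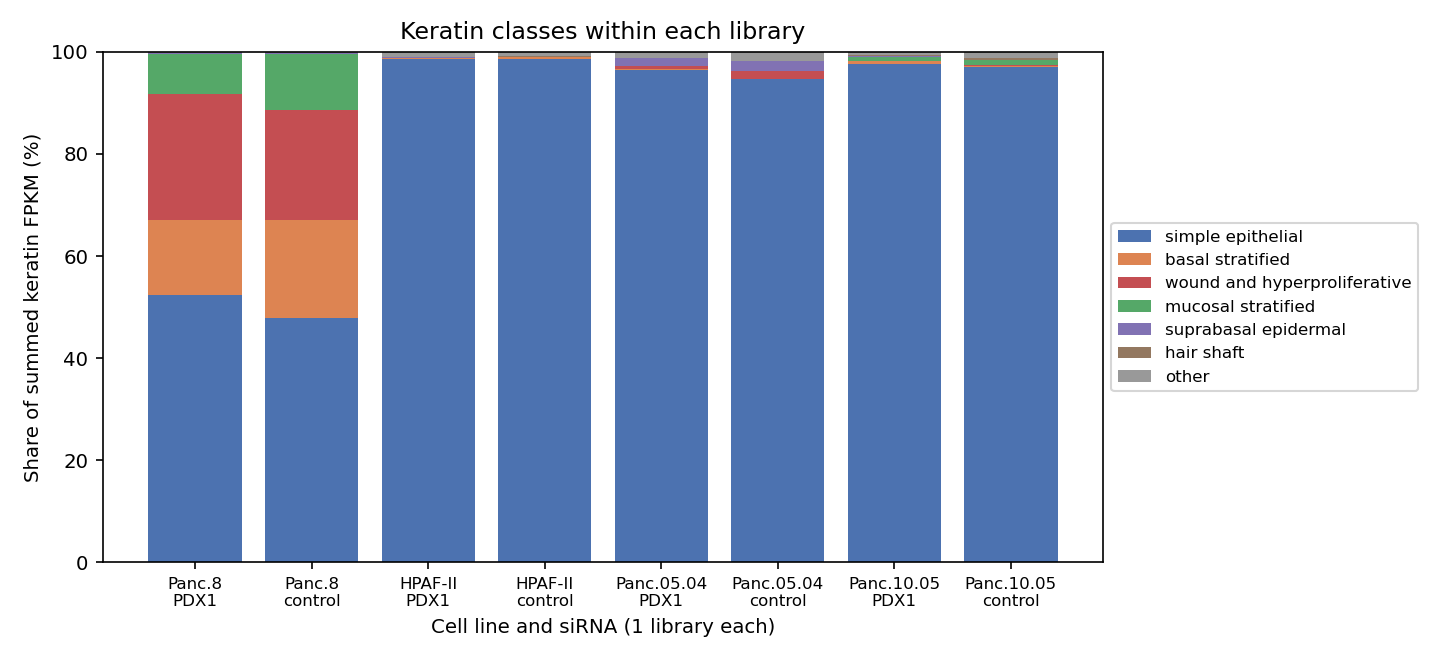
Share of each keratin class in the summed keratin FPKM of each library, in percent, with PDX1 siRNA left of control siRNA in each line. Stacked bars reach 100%, and the simple epithelial class holds 52.3% with PDX1 siRNA and 47.8% with control siRNA in Panc.8 and at least 94.6% in the other 6 libraries.

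Keratin levels differed more between lines than between the siRNA libraries of a line, for all 14 keratins tested. The 4 line means of log2(FPKM + 1) spanned 10.14 for KRT5, 9.81 for KRT17, 9.76 for KRT19, 9.12 for KRT7, 9.08 for KRT13 and 8.38 for KRT6A. They spanned 1.89 for KRT18, 1.95 for KRT80 and 2.05 for KRT8. Of the 14 keratins with a mean of at least 1 FPKM, 9 spanned at least 3 on this scale, where 11.3% of the 12110 genes with such a mean did. The median span was 5.16 over these keratins and 1.23 over all those genes. A gene that reaches the mean through a single line had to span a wide range, so these counts describe the 14 and give no test. The largest difference between the libraries of a line had a median of 0.57 over the keratins and 0.35 over all genes. In 14 of 14 keratins the span between lines exceeded it, as in 94.3% of all genes.

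**Figure D3:**
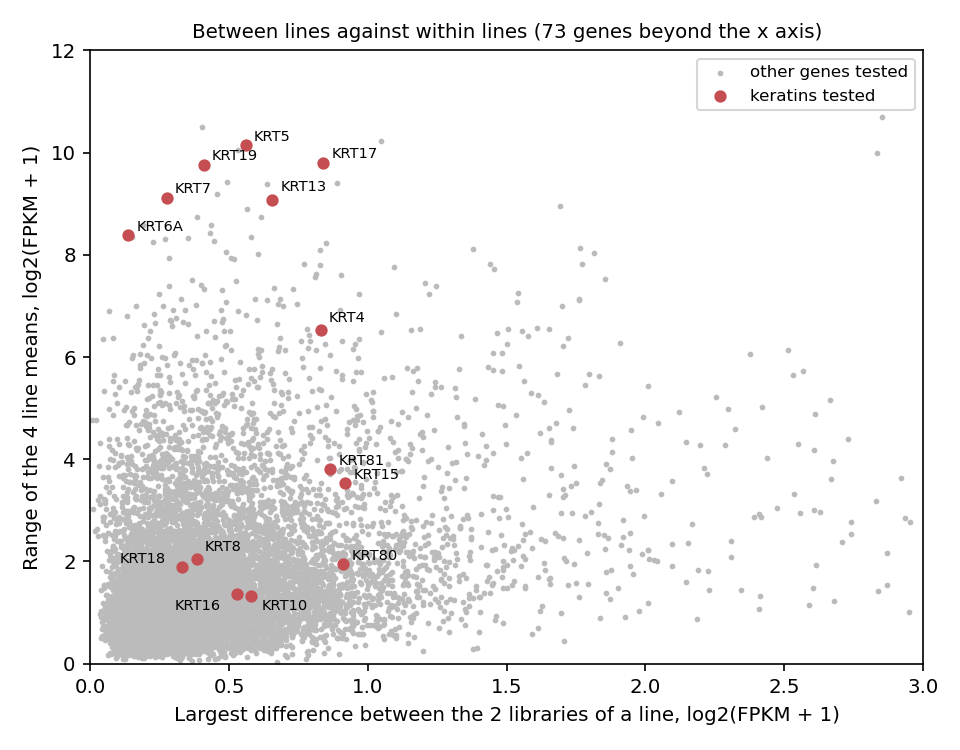
Range of the 4 line means (vertical axis) against the largest difference between the 2 libraries of a line (horizontal axis), both on log2(FPKM + 1), with 14 keratins in red and the other tested genes in grey. KRT5, KRT17, KRT19, KRT7, KRT13 and KRT6A lie above 8 on the vertical axis and below 1 on the horizontal axis, and 73 genes lie beyond the horizontal limit of 3.

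Across the 4 lines, no keratin differed between PDX1 siRNA and control siRNA beyond the spread between lines. The means of 12 of the 14 keratins tested were below 0 and those of KRT15 and KRT6A above it, but in none did all 4 lines show the same sign. KRT5, KRT13 and KRT4 could not do so, as both Panc.05.04 libraries were listed at 0 and the ratio there was 0. KRT80 had the lowest mean log2 ratio of FPKM + 1, at -0.30 ± 0.43 (SD, n = 4 lines), and KRT15 the highest, at 0.23 ± 0.64. Both rested on Panc.10.05, without which the mean was -0.10 for KRT80 and 0.0015 for KRT15, and without Panc.8 that of KRT15 was 0.51. The filament proteins of the simple class stayed close to 0, with means of -0.057 ± 0.33 for KRT8, -0.022 ± 0.24 for KRT18, -0.048 ± 0.19 for KRT7 and -0.12 ± 0.28 for KRT19. At an adjusted p under 0.05, limma with the line as a block and Benjamini-Hochberg adjustment over 12110 genes called 0 keratins, and 0% of all genes. At an unadjusted p under 0.05 it called 0 keratins, and 3.63% of all genes. The smallest unadjusted p was 0.119, for KRT80, and adjusted p-values of the 14 lay between 0.898 and 0.982.

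The median of the 14 means was -0.14, against 0.01 over all genes tested, and 85.7% of the keratins were below 0, against 47.3% of all genes. Without the filter on low values the median over 38 keratin rows was -0.020. Lower in 4 of 4 lines were 0 of the keratins and 5.8% of all genes, and higher in 4 of 4 lines were 0 of the keratins and 7.45% of all genes. For KRT5, KRT13 and KRT4 neither was possible, with a ratio of 0 in Panc.05.04. Panc.10.05 had the most keratins below 0, where 11 of the 14 were lower and the median log2 ratio was -0.22. Of these 11, KRT5, KRT6A, KRT4 and KRT17 were under 1 FPKM in both libraries of that line. In Panc.8 the median was -0.06 with 8 lower, and in HPAF-II 7 were lower and 7 higher. Panc.05.04 had 5 lower and 6 higher, with a median of 0, and KRT5, KRT13 and KRT4 were neither. Under 1 FPKM in both libraries were KRT5, KRT17, KRT13, KRT6A, KRT4, KRT81 and KRT16 in HPAF-II. So were KRT6A, KRT7 and KRT81 in Panc.05.04, beside those listed at 0, and KRT81 in Panc.8. Over all genes tested the median was -0.0049 in Panc.8, 0.012 in HPAF-II, 0.030 in Panc.05.04 and -0.0039 in Panc.10.05. The share of all genes below 0 was not taken within single lines, so these counts are descriptions. In bulk samples such as these, fewer cells with a transcript and less of it per cell cannot be told apart.

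KRT17 had the widest spread between lines after KRT15 among the keratins tested. It was under 1 FPKM in the libraries of HPAF-II and Panc.10.05. Its mean log2 ratio was -0.24 ± 0.52 (SD, n = 4 lines), made of -0.04 in Panc.8, 0.36 in HPAF-II, -0.84 in Panc.05.04 and -0.46 in Panc.10.05. The mean of KRT13 was -0.20 ± 0.40, and it turned to 0.12 with a pseudocount of 0.1, where the HPAF-II control, listed at 0, weighs more. The mean was -0.047 for KRT17 and -0.025 for KRT19 without Panc.05.04, and -0.045 for KRT13 without Panc.8. Leaving out a single line turned the sign for KRT7, KRT8 and KRT18, whose means are closest to 0 in the simple class. KRT5, KRT4 and KRT81 had means of -0.17 ± 0.26, -0.21 ± 0.41 and -0.24 ± 0.47, and each of these genes reached 1 FPKM in a single line. KRT10 and KRT16 had means of -0.19 ± 0.41 and -0.06 ± 0.40, which came to -0.066 for KRT10 without Panc.8 and -0.0045 for KRT16 without HPAF-II, and KRT6A had 0.06 ± 0.11. The described members outside the test, with a mean under 1 FPKM, were KRT6B, KRT14 and KRT86, at 0.20 ± 0.27, -0.06 ± 0.19 and -0.10 ± 0.24.

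**Figure D4:**
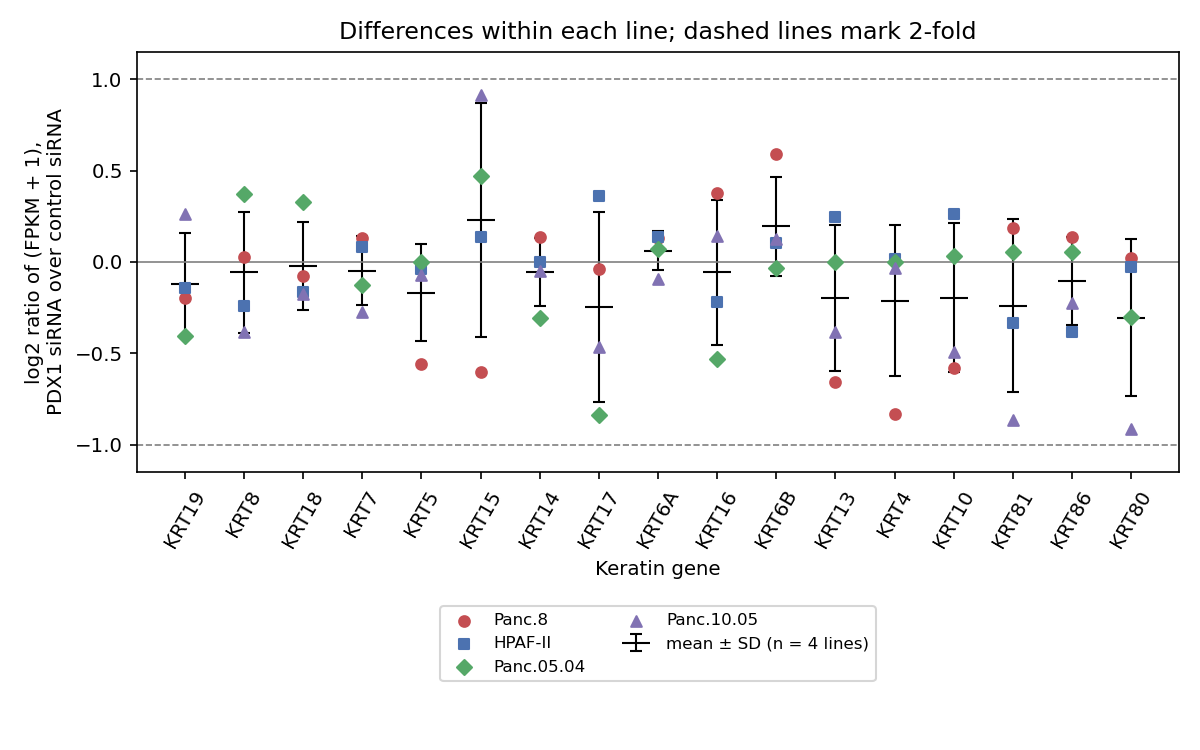
Log2 ratios of FPKM + 1, PDX1 siRNA over control siRNA, for the 17 described keratins in each line (coloured points) with the mean ± SD over 4 lines (black). No point passes the dashed lines at 2-fold, and the points of 1 gene lie on both sides of 0 for most members, as for KRT15 at -0.60 in Panc.8 and 0.92 in Panc.10.05.

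Within the lines, no keratin with at least 1 FPKM in either library reached a 2-fold difference on FPKM + 1. Of the genes at that level, 1.89% did so in Panc.8 (1.69% higher and 0.197% lower with PDX1 siRNA), 0.358% in HPAF-II (0.192% higher and 0.166% lower), 1.04% in Panc.05.04 (0.403% higher and 0.639% lower) and 4.8% in Panc.10.05 (3.09% higher and 1.71% lower). There was 1 library per siRNA in a line, so these differences have no replicate check. The widest differences in Panc.8 were those of KRT4, KRT13, KRT15, KRT10 and KRT5, with log2 ratios of -0.83, -0.66, -0.60, -0.58 and -0.56, and of KRT6B at 0.59. KRT7, KRT8, KRT17 and KRT6A in the same libraries were at 0.13, 0.03, -0.04 and 0.13. KRT4, KRT13, KRT15, KRT10 and KRT5 thus had lower values with PDX1 siRNA in Panc.8, while the basal KRT14, at 0.14, and the simple keratins stayed near control. The PDX1 siRNA library of Panc.8 also had the lowest estimated relative depth of the 4 lines, and the part of depth in these differences was not tested.

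Panc.10.05 held the widest differences of the other lines. There KRT80, KRT81 and KRT10 were lower with PDX1 siRNA, with log2 ratios of -0.91, -0.86 and -0.49, and KRT15 was higher at 0.92. KRT15 was also higher in Panc.05.04, at 0.47, and in HPAF-II, at 0.14. In Panc.05.04 the widest differences were those of KRT17 and KRT16, at -0.84 and -0.53, with KRT8 and KRT18 at 0.37 and 0.33. In HPAF-II the widest were those of KRT86 at -0.38 and KRT17 at 0.36, each under 1 FPKM in both libraries there. Among keratins at 1 FPKM or more in HPAF-II, the widest were KRT10 at 0.26 and KRT8 at -0.24. The authors' deposited table gave no keratin a q under 0.05 in any line, where it did so for 0.977% of tested rows in Panc.8, 0% in HPAF-II, 0.264% in Panc.05.04 and 0.113% in Panc.10.05. Unadjusted, the authors' deposited table gave p = 0.028 for KRT4 in Panc.8, 0.0136 for KRT17 in Panc.05.04, and 0.0353 for KRT80 and 0.0475 for KRT15 in Panc.10.05. These p-values compare 2 libraries and not the conditions.

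Summed type I keratins exceeded summed type II keratins in all 8 libraries, most of all in the PDX1 siRNA library of Panc.10.05. The type I sum over the type II sum was 1.22 (Panc.8), 1.21 (HPAF-II), 1.27 (Panc.05.04) and 1.62 (Panc.10.05) with PDX1 siRNA, against 1.25 (Panc.8), 1.23 (HPAF-II), 1.32 (Panc.05.04) and 1.19 (Panc.10.05) with control siRNA. The other 7 libraries lay between 1.19 and 1.32. In Panc.10.05, KRT19 took 39.4% of the keratin sum with PDX1 siRNA and 30.7% with control siRNA, while KRT8 took 23.5% with PDX1 siRNA and 28.6% with control siRNA. The log2 difference of the type I to type II ratio was 0.084 ± 0.24 (SD, n = 4 lines), higher in 1 of 4 lines, with p = 1 by a two-sided exact permutation of its signs. Without Panc.10.05 it was -0.038.

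**Figure D5:**
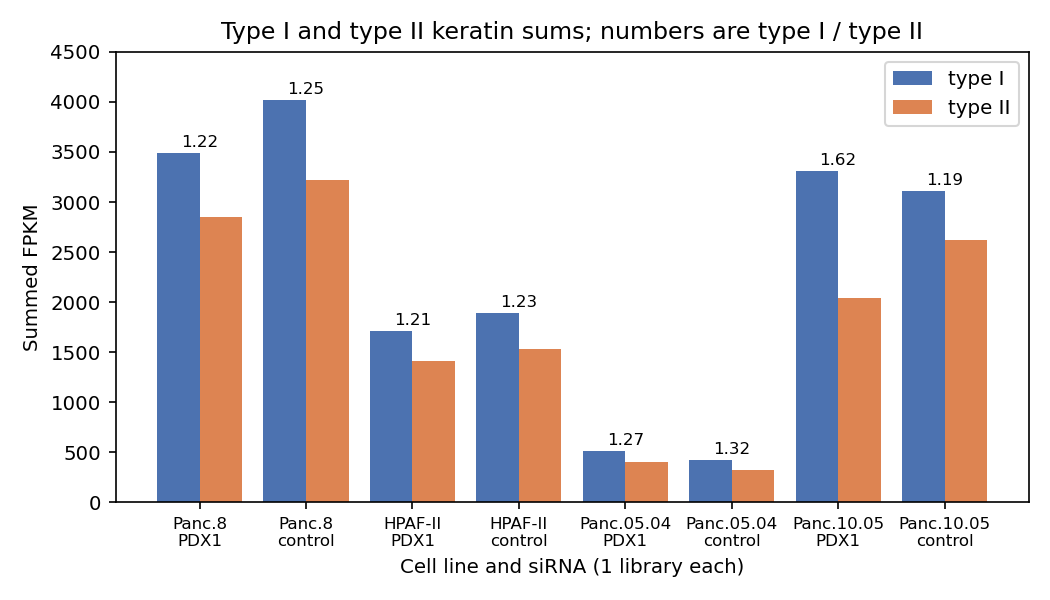
Summed FPKM of type I (blue) and type II (orange) keratins in each library, PDX1 siRNA left of control siRNA, with the ratio of the sums printed above. The ratio lies between 1.19 and 1.32 in 7 libraries and is 1.62 with PDX1 siRNA in Panc.10.05.

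For the summed keratin level and the class shares, no difference beyond the spread between lines was found either. The log2 ratio of summed keratin FPKM was -0.026 ± 0.23 (SD, n = 4 lines), lower in 3 of 4 lines, with p = 0.875 by the same exact permutation. It was 0.029 without Panc.8 and 0.01 without HPAF-II. The share outside the simple epithelial class was 47.7% (Panc.8), 1.49% (HPAF-II), 3.49% (Panc.05.04) and 2.39% (Panc.10.05) with PDX1 siRNA, against 52.2% (Panc.8), 1.33% (HPAF-II), 5.37% (Panc.05.04) and 2.97% (Panc.10.05) with control siRNA. It differed by -1.69 ± 2.04 percentage points (SD, n = 4 lines), lower in 3 of 4 lines, with p = 0.25 by the same exact permutation.

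Proteins that anchor or regulate keratin filaments were read from lists of known function, and in each list 0 genes passed the adjusted threshold in the same limma fit. Over all genes tested, 47.3% had means below 0. The counts of means above and below 0 in the lists were not tested against that share. Of 13 genes of the desmosome, the junction to which keratin filaments attach, 10 were tested, of which 3 had means above 0 and 7 below. DSC2 (desmocollin) had a mean log2 ratio of 0.32 ± 0.23, and PKP2 (plakophilin), PERP and DSP (desmoplakin) had -0.23 ± 0.40, -0.23 ± 0.25 and -0.22 ± 0.40 (SD, n = 4 lines). Of 8 plakins and keratin-binding genes, 7 were tested and 7 had means below 0. PLEC (plectin), a linker between filament systems, was at 44.8 FPKM with PDX1 siRNA and 127 FPKM with control siRNA in Panc.10.05, and its mean over the lines was -0.40 ± 0.74. PPL (periplakin), SFN (14-3-3 sigma) and EVPL (envoplakin) had means of -0.39 ± 0.46, -0.25 ± 0.18 and -0.19 ± 0.26.

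Of 13 genes for other intermediate filaments, 6 were tested, with 2 means above 0 and 4 below. The nuclear lamins LMNA, LMNB2 and LMNB1 had means of -0.37 ± 0.41, -0.34 ± 0.37 and -0.29 ± 0.29, and VIM had -0.31 ± 0.23 (SD, n = 4 lines). Of 13 transcription factors known for keratin genes in epithelia, 13 were tested, with 10 means above 0 and 3 below (47.3% of all genes tested were below). SOX2 had 0.53 ± 1.29, from 15.0 FPKM with PDX1 siRNA and 1.96 FPKM with control siRNA in Panc.10.05, and ELF3, GRHL3 and KLF5 had 0.25 ± 0.96, 0.18 ± 0.19 and -0.13 ± 0.19. TP63 (p63) is a factor of basal cells that is known to activate KRT5 and KRT14. It was at 62.8 FPKM with PDX1 siRNA and 69.3 FPKM with control siRNA in Panc.8, and at 0.366 FPKM or less in the other libraries. In Panc.8 KRT5 was high, while KRT14 was at 1.82 FPKM with PDX1 siRNA and 1.57 FPKM with control siRNA. The part of TP63 in these levels was not tested. TP63, like MUC1, CD68, CD14 and the markers given as low or listed at 0, lies outside the rule for named genes and was chosen after its values were seen.

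Cornified envelope genes, which seal the surface of stratified epithelium, followed the stratified keratins by line. Of 13 such genes, 11 reached 1 FPKM in each library of Panc.8, against 3 or fewer in any other library. Of the 8 tested, 4 had means above 0 and 4 below. The small proline-rich genes SPRR2D, SPRR2A and SPRR1A had means of 0.39 ± 0.80, 0.36 ± 0.95 and 0.18 ± 0.35, and CNFN (cornifelin) had -0.36 ± 0.32 (SD, n = 4 lines). In Panc.8 SPRR2A was at 80.5 FPKM with PDX1 siRNA and 22.7 FPKM with control siRNA, while KRT4 and KRT13 were lower with PDX1 siRNA in the same libraries. At an unadjusted p under 0.05, where 3.63% of all genes were called, limma called 1 of 10 desmosome genes (DSC2), 1 of 7 plakins and keratin-binding genes (SFN), 1 of 6 genes for other intermediate filaments (VIM), 1 of 8 cornified envelope genes (CNFN) and 0 of 13 transcription factors.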

How the data were processed

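The authors deposited, per the file headers, FPKM for both libraries of each line with a p-value and a q-value, 1 table per line. TopHat2 (version 2), Cufflinks, Cuffdiff and hg38 are named in the submitters' processing notes. The sources used here do not give the annotation, the strandedness or read numbers. The q-values, per the file headers, belong to a comparison of 2 libraries.

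Rows were joined by identifier over the 4 tables, and 1 was added to starts, which count from 0. Log2 ratios were taken on FPKM plus a pseudocount of 1, which understates changes of low genes. The 12110 genes with a mean of at least 1 FPKM entered limma 3.58.1 (R 4.3.3), with a block for the line and an eBayes trend (3 residual and 2.94 prior degrees of freedom), checked on simulated data. The labels give the line of each library, which sets the pairing. Deviations correlated within lines (r between 0.844 and 0.963) and reached at most -0.152 between lines. Single values were tested with the exact sign-flip permutation test over 16 patterns, which gives no p below 0.125. No 2 libraries shared more than 0.00910% of their values above 1 FPKM.

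Described were all keratins at 1 FPKM or more in any library, PDX1, up to 4 tested members with the largest mean log2 ratio in size from each list of genes linked to keratin filaments, and the highest gene of each marker list. Members and lists were chosen with earlier results of these data known. Motifs and windows were searched with Python 3.11.15, numpy 2.4.6 and pandas 2.3.3. Permutation tests ran through all sign patterns with numpy, coding sequences were aligned with Biopython, and figures used matplotlib 3.10.9. Alternatives were a pseudocount of 0.1, no filter, centring on the median ratio, no block, a minimum of 5 FPKM, leaving out near-identical paralogs, and leaving out each line.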

Additional observations from a re-analysis of the deposited data

Results flagged for a closer look

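With 4 lines in a group, a value stood apart when its gap to the nearest other line took more than 0.83 of the group's range. This held for 15 of 34 groups of keratin levels and 3 of 17 groups of ratios. Chance marks about 1 in 20 groups of unselected values, but that rate does not apply here. KRT5, KRT6A, KRT4, KRT6B and KRT14 were described because they reached 1 FPKM in Panc.8 alone, and KRT81 because it did so in Panc.10.05 alone, so that a line standing apart was largely fixed by their choice. Their values are a description and no test. Levels were set across the tables of different lines.

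Panc.8 stood apart as the high line for KRT5 (928 FPKM with PDX1 siRNA and 1368 FPKM with control siRNA), KRT6A (357 FPKM with PDX1 siRNA and 326 FPKM with control siRNA), KRT4 (67.9 FPKM with PDX1 siRNA and 122 FPKM with control siRNA) and KRT6B (2.33 FPKM with PDX1 siRNA and 1.21 FPKM with control siRNA). It did so for KRT14 with PDX1 siRNA alone (1.82 FPKM). Its log2 ratios, PDX1 siRNA over control, also stood apart, at -0.56 for KRT5 and -0.83 for KRT4, in genes near 0 FPKM in the other lines, where the pseudocount of 1 holds the ratios close to 0. Panc.05.04 stood apart as the low line for KRT19 (0.921 FPKM with PDX1 siRNA and 1.55 FPKM with control siRNA) and KRT7 (0.709 FPKM with PDX1 siRNA and 0.868 FPKM with control siRNA), and as the high line with PDX1 siRNA for KRT10 (13.95 FPKM). Panc.10.05 stood apart with PDX1 siRNA for KRT81 (9.53 FPKM), and in the log2 difference of the type I to type II ratio (0.45).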

How the results depend on the processing

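Over 24 results, 158 alternatives were computed, of which 146 kept the direction and the side of the threshold, 3 moved a count or a median and 9 turned a sign. No keratin passed an adjusted p of 0.05 in any of them. Without the line as a block, limma called 0 keratins and the median of the 14 means stayed at -0.14. Every line has a library of each siRNA, so dropping the block leaves each mean ratio as it was. The differences between lines then enter the error, and the fit with the block already called 0 genes at the adjusted threshold. These alternatives are counted among the 146, but they cannot show whether the pairing by line matters. Without the filter on low values, with 38 rows in place of 14, the median was -0.020.

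Leaving out 1 line gave 0 to 1 keratins at an unadjusted p under 0.05, namely KRT15 without Panc.8 and KRT19 without Panc.10.05, and a median between -0.20 and -0.09. The log2 ratio of the keratin sum then lay between -0.14 and 0.029, turning to 0.029 without Panc.8 and 0.010 without HPAF-II. The type I to type II difference lay between -0.038 (without Panc.10.05) and 0.13, and the share outside the simple class between -2.32 and -0.76 percentage points. KRT7 ranged between -0.11 and 0.028, above 0 without Panc.10.05. KRT18 ranged between -0.14 and 0.029, and KRT8 between -0.20 and 0.052, both above 0 without HPAF-II and without Panc.10.05. KRT80 ranged between -0.41 and -0.10 and KRT15 between 0.0015 and 0.51, each nearest 0 without Panc.10.05. KRT13 turned to 0.12 with a pseudocount of 0.1, which gives more weight to an HPAF-II control listed at 0.

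Depth was unknown, so levels under 1 FPKM cannot be set against a detection limit.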
